A study of Homo sapiens with 6 samples.

Results

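Integrins and laminins were examined in the lung carcinoma line NCI-H292, which has epithelial character, on 94 probe sets that the platform annotation assigns to a single gene with an integrin α or β subunit or laminin chain symbol. They cover 34 of the 19775 genes with such an assignment, 24 integrin and 10 laminin genes. A probe set is a group of short array oligonucleotides that together report 1 transcript signal. The CT45A1 overexpression group was stably transfected with CT45A1 fused to Venus, a yellow fluorescent protein, and the CT45A1 negative group with the Venus vector. Each group had 3 replicates, each on 1 array. CT45A1 is a cancer/testis antigen gene. The labels do not say whether the lines were clones or pools, nor that replicates came from different cultures. The p-values therefore cover just the scatter of these 6 arrays, which could be technical.

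Integrins are cell surface receptors made of 1 α and 1 β subunit that bind matrix proteins outside the cell and link to the actin or keratin cytoskeleton inside it. Laminins are secreted trimers of an α, a β and a γ chain and form the sheet on which epithelial cells sit, the basement membrane. Airway epithelial cells hold on to laminin mainly through integrins that contain ITGA3 or ITGA6. ITGA6 with ITGB4 sits in hemidesmosomes, the rivets that anchor keratin filaments.

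Each value is a MAS5 signal on a linear intensity scale, and a difference is the mean log2 signal of overexpression arrays minus that of negative arrays. The 2% trimmed mean was 500.1 on all 6 arrays, and the array median was 79.2 to 83.3 in overexpression and 72.6 to 75.6 in negative arrays. The brighter CT45 probe set had signals of 518, 700 and 445 on overexpression arrays, against 23.1, 15.8 and 1.95 on negative arrays, and the dimmer one 154, 179 and 207 against 2.27, 36.3 and 22.0. Each is annotated to 9 CT45 genes, so CT45A1 was not separated from its relatives. All 8 epithelial markers exceeded the array median on all 6 arrays, and their mean log2 signal ranged from 12.55 to 12.65 in overexpression and 12.53 to 12.64 in negative arrays. Of these markers 1 was called, KRT18, a keratin of simple epithelia, which fell by 0.25 (limma adjusted p = 0.0367) without overlap. The ratio of the actin 3′ to 5′ probe sets, which depends on RNA integrity and labelling, was 1.42 to 1.55 in overexpression and 1.64 to 1.91 in negative arrays. This ratio did not overlap between the groups. Neither did the same ratio for GAPDH, at 0.97 to 1.04 in overexpression and 1.05 to 1.18 in negative arrays. In fits that add the actin ratio as a covariate, group and ratio are therefore hard to tell apart. The cause of a changed difference in those fits was not tested.

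With CT45A1, the laminin α chain LAMA5 rose and the laminin receptor subunit ITGA6 fell, and none of the other 18 integrin and laminin genes tested passed the threshold, an adjusted p under 0.05 in limma. Only probe sets that exceeded the array median in 3 or more of the 6 samples were tested, which left 38 of the 94 probe sets and 20 of the 34 genes. Each gene was represented by its brightest kept probe set. Of these 20 genes 1 passed upward and 1 downward, and over all 11895 genes so tested 3.83% passed, 1.94% upward and 1.89% downward. Counted by probe set, 2 of 38 passed, 1 upward and 1 downward, against 3.23% of 27618 in the whole table, 1.89% upward and 1.34% downward. Groups did not overlap at 16 of the 38 probe sets, 10 higher and 6 lower in overexpression, while 26.6% of all probe sets were separated in this way, 15.2% higher and 11.4% lower. Among the genes 8 of 20 were separated, beside 27.2% of all, and an unadjusted p under 0.05 was reached by 7 of 20, beside 20.9% of all. An unadjusted p under 0.05 was reached by 11 of the 38 probe sets and by 20.7% of all. Differences lay above 0 for 20 of the 38 probe sets, beside 55.5% of all probe sets. Counted by gene, they did for 12 of 20, beside 51.7% of all genes. The median difference of the 20 genes was 0.0405, beside 0.00845 for all genes tested. These values come from whole cultures, so fewer cells with a transcript and less of it per cell cannot be told apart.

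**Figure D1:**
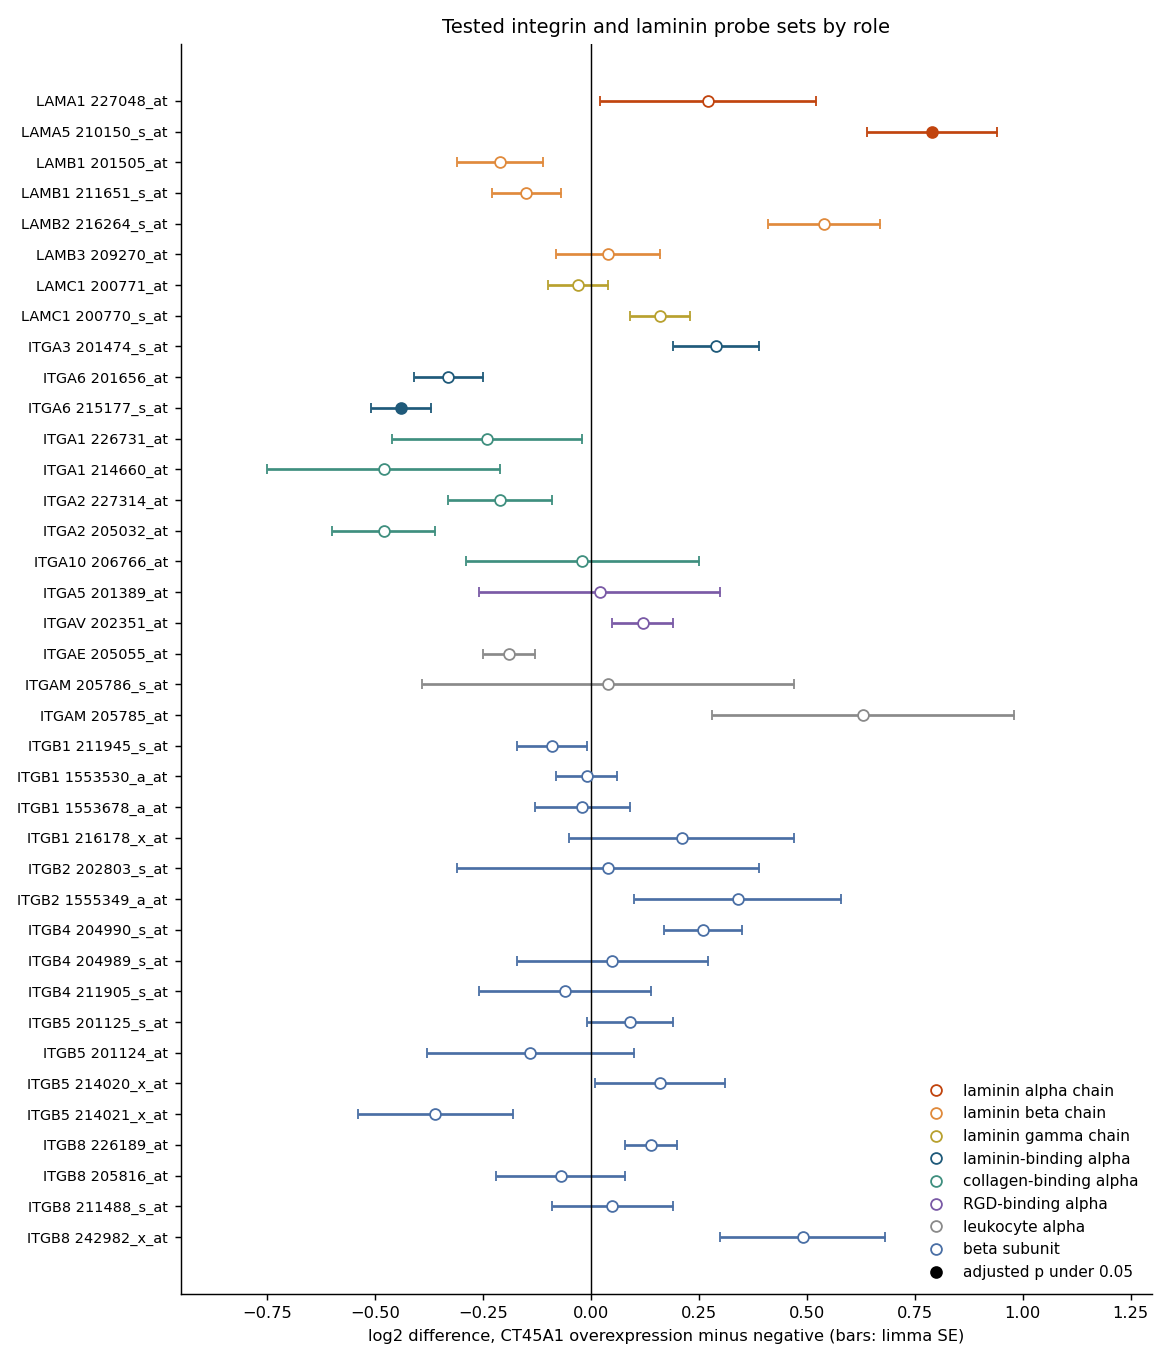
Log2 difference (x axis, CT45A1 overexpression minus negative, bars are limma standard errors) for the 38 tested integrin and laminin probe sets (y axis), coloured by role. Filled points passed an adjusted p of 0.05 over all probe sets; they are LAMA5 at 0.79 and one ITGA6 probe set at -0.44. The other ITGA6 probe set, at -0.33, is open here (adjusted p = 0.051) and passes when only 1 probe set per gene is counted.

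LAMA5 encodes the α chain of the broadly expressed epithelial laminins that also contain LAMB1 or LAMB2 and LAMC1. Its only member probe set had signals of 2454, 2551 and 2995 on the overexpression arrays, against 1291, 1413 and 1986 on the negative arrays. All overexpression arrays lay above all negative ones, and negative replicate 3 lay closest to them. LAMA5 rose by 0.79 on the log2 scale, or 1.73-fold (SE 0.15, 95% interval 0.47 to 1.12, n = 3 per group, limma adjusted p = 0.0196 over genes and 0.0219 over probe sets). The difference was 0.98 without negative replicate 3 and 0.67 without negative replicate 1. Without overexpression replicate 2 or 3, or negative replicate 1 or 2, the adjusted p over genes was 0.0723, 0.0587, 0.0758 and 0.0624, past the threshold in none of them. With the actin 3′ to 5′ ratio added to the fit as a covariate, the difference was 1.36 (limma adjusted p = 0.00139 over genes). As that ratio separated the groups, the fit can hardly tell it from the group. A further probe set is annotated to both LAMA5 and its antisense gene LAMA5-AS1 and is therefore no member. Its log2 signals were 6.05, 5.86 and 6.59 in overexpression and 6.62, 6.0 and 6.69 in negative arrays. They overlapped and differed by -0.27 (SE 0.36, adjusted p = 0.713 over probe sets). Those signals lay near the array median.

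ITGA6 encodes the α subunit of a laminin receptor, paired with ITGB1 or ITGB4. On overexpression arrays its brighter probe set read 6581, 7413 and 6937, against 8938, 9449 and 7908 on negative arrays. Its other probe set had 2658, 2786 and 2864 in overexpression, against 3870, 3741 and 3620 in negative arrays. At both probe sets each overexpression array was below each negative array. ITGA6 fell by 0.33 at the brighter probe set, to 0.797 of the negative level (SE 0.08, limma adjusted p = 0.0475 over genes and 0.051 over probe sets). The other probe set fell by 0.44, to 0.74 of the negative level (SE 0.07, limma adjusted p = 0.0105). The 95% intervals were -0.50 to -0.15 and -0.58 to -0.29. Leaving out any single array other than negative replicate 3 ended the call on the gene, with differences of -0.37 to -0.27 and an adjusted p of 0.0924 to 0.161. The dimmer probe set lost its call without overexpression replicate 1 or 2 (differences of -0.41 and -0.44, adjusted p = 0.0511 and 0.0585). In the fit with the actin covariate, differences were -0.50 and -0.45. The brighter probe set was then past the threshold over genes (adjusted p = 0.042), and the dimmer one was not over probe sets (adjusted p = 0.0683).

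For LAMA5 and ITGA6, the genes that passed, the 250 bases before the annotated gene start are given. They are read 5′ to 3′ on the gene's strand from RefSeq in GRCh38.p14. Capitals mark the GC box letters GGGCGG or its reverse complement CCGCCC. The LAMA5 window is chr20:62367313-62367562 on the minus strand and the ITGA6 window is chr2:172427086-172427335 on the plus strand.
LAMA5: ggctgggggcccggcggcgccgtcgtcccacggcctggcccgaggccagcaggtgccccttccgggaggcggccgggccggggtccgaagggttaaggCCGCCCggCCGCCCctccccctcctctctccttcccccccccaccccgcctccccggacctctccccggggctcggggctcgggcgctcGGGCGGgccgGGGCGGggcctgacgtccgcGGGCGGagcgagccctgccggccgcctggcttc
ITGA6: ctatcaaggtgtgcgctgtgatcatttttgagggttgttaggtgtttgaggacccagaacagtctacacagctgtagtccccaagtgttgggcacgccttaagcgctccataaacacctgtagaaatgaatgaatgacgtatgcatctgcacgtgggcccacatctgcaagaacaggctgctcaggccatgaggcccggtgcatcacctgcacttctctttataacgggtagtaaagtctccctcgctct
The LAMA5 window held 5 GC boxes and was 82.8% G and C. The ITGA6 window held none and was 50.8% G and C. A second annotated ITGA6 start lies directly downstream, and its 250 base window held 3 GC boxes at 71.6% G and C. The letters TATAAA or TTTATA occurred 1 time in the ITGA6 window shown and 0 times in the LAMA5 window, and TGANTCA, the AP-1 motif, in neither. CANNTG, the E-box motif, occurred 7 times in the ITGA6 window shown and 1 time in the LAMA5 window. Of all 35116 windows of this length, 42.6% held a GC box, 10.7% TATAAA on either strand, 6.57% TGANTCA and 61.8% CANNTG. A match is letters only, and binding was not measured.

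The other laminin chains did not pass. LAMB2, the β chain that can replace LAMB1 beside LAMA5, had signals of 599, 556 and 615 in overexpression, against 382, 484 and 363 in negative arrays. The groups did not overlap, and the difference was 0.54, or 1.45-fold (SE 0.13, limma adjusted p = 0.0515 over genes). With the actin covariate it was 0.29 (adjusted p = 0.508), and without negative replicate 2 it was 0.66 (adjusted p = 0.0378). Over genes LAMB2 passed in 3 of 16 alternatives, that one, the offset of 32 and the averaging of probe sets. LAMB1 gave log2 signals of 11.92, 11.89 and 11.95 on overexpression arrays at its brighter probe set, against 12.09, 11.94 and 12.36 on negative arrays, with overlap. It differed by -0.21 there (SE 0.10, adjusted p = 0.261) and by -0.15 at its other probe set, where the groups did not overlap. After centring on the array median both LAMB1 probe sets were called lower, by 0.35 and 0.29 (adjusted p = 0.0385 and 0.0456 over probe sets). With the actin covariate the brighter one differed by 0.14 (adjusted p = 0.554), in the other direction, and the dimmer one by -0.23 (adjusted p = 0.371).

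LAMC1, the γ chain common to most laminins, gave 12.50, 12.28 and 12.44 in overexpression and 12.43, 12.50 and 12.38 in negative arrays at its brighter probe set, a difference of -0.03 (SE 0.07, 95% interval -0.19 to 0.13). Its other probe set differed by 0.16 (SE 0.07, limma adjusted p = 0.191 over probe sets) without overlap, at 11.64, 11.72 and 11.65 against 11.53, 11.46 and 11.53. LAMB3, the β chain of the laminin in epithelial anchoring complexes, overlapped between the groups and differed by 0.04 (SE 0.12, 95% interval -0.24 to 0.31). LAMA1, an α chain prominent in the embryo, differed by 0.27 (SE 0.25) at a probe set just above the array median.

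**Figure D2:**
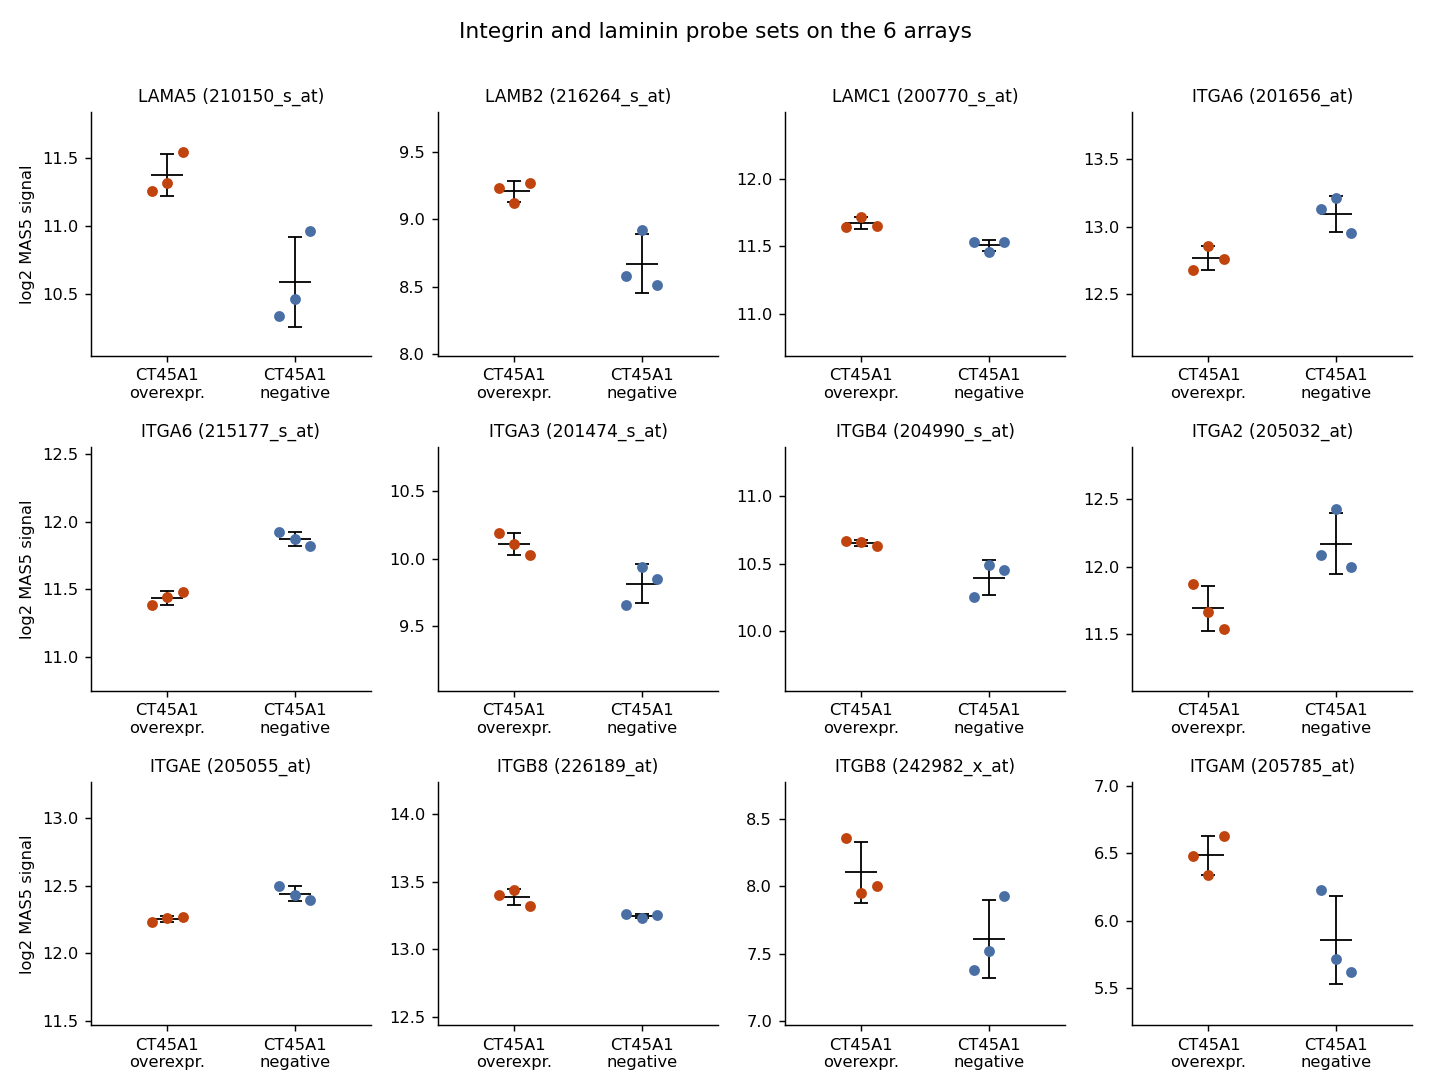
Log2 MAS5 signal (y axis) of 12 integrin and laminin probe sets on the 3 CT45A1 overexpression arrays (left in each panel) and the 3 CT45A1 negative arrays (right); points are arrays, bars the mean and SD, and each panel spans the same range of 1.8 log2 units. The largest gap is at LAMA5, with means of 11.38 and 10.58, and at the dimmer ITGA6 probe set, with means of 11.43 and 11.87, the replicates of each group lie close together.

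Among laminin-binding α subunits, ITGA3, which pairs with ITGB1, ran opposite to ITGA6 without passing. Its log2 signals were 10.19, 10.11 and 10.03 in overexpression, against 9.66, 9.94 and 9.85 in negative arrays, with no overlap. The difference was 0.29 (SE 0.10, limma adjusted p = 0.139 over genes). ITGB4, the β subunit of the hemidesmosome, gave 10.67, 10.66 and 10.63 against 10.25, 10.49 and 10.45 at its brightest probe set. That is a difference of 0.26 (SE 0.09, adjusted p = 0.131), again without overlap. Its other tested probe sets differed by 0.05 and -0.06 and overlapped. ITGB1, the partner of many α subunits, differed by -0.09 at its brightest probe set (SE 0.08, 95% interval -0.28 to 0.09) and overlapped at all 4 tested probe sets.

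Of 4 collagen-binding α subunits 3 were tested, and none passed. ITGA2, which binds collagen with ITGB1, read 3754, 3250 and 2970 on overexpression arrays at its dimmer probe set, against 4351, 5508 and 4094 on negative arrays. The groups did not overlap there, and the difference was -0.48 (SE 0.12, limma adjusted p = 0.0566 over probe sets). The brighter ITGA2 probe set read 10222, 8314 and 7768 against 10356, 11362 and 8619 and differed by -0.21 (SE 0.12, adjusted p = 0.336 over genes) with overlapping groups. Both passed when the actin ratio was a covariate, at -0.88 and -0.66 (limma adjusted p = 0.0157 and 0.0197 over probe sets). ITGA1, another collagen receptor subunit, differed by -0.24 and -0.48 at its tested probe sets (SE 0.22 and 0.27), the second without overlap. RefSeq places the gene PELO inside the ITGA1 span, and which transcript those probes capture was not tested. ITGA10 differed by -0.02 (SE 0.27). ITGA11 was too dim to test.

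The subunits of receptors for the RGD sequence of fibronectin and vitronectin did not pass either. ITGAV, which pairs with several β subunits, had log2 signals of 12.88, 12.89 and 12.94 in overexpression and 12.84, 12.86 and 12.65 in negative arrays. The groups did not overlap, and it differed by 0.12 (SE 0.07, 95% interval -0.04 to 0.27). ITGA5, the fibronectin receptor subunit, differed by 0.02 (SE 0.28), and its SD was 0.08 in overexpression and 0.56 in negative arrays. ITGB5 differed by 0.09 at its brightest probe set and by -0.36 to 0.16 at the other 3. ITGB8, which with ITGAV releases active TGF-beta, gave 13.40, 13.44 and 13.32 against 13.26, 13.23 and 13.25 at its brightest probe set, where the groups did not overlap. That difference of 0.14 (SE 0.06, limma adjusted p = 0.187 over genes) was called after quantile normalization (adjusted p = 0.0443) and was -0.00271 after centring on the array median. Another ITGB8 probe set differed by 0.49 (SE 0.19, adjusted p = 0.185 over probe sets), with signals of 328, 248 and 256 against 167, 184 and 244 and no overlap, and the remaining probe sets by 0.05 and -0.07. ITGB6, the partner of ITGAV in an epithelial TGF-beta receptor, is covered by probe sets annotated also to LINC02478, and these differed by -0.15, 0.24 and 0.11 (adjusted p = 0.759, 0.665 and 0.797).

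Integrins named for leukocytes were mostly dim. ITGAE, which in T cells pairs with ITGB7 to bind E-cadherin, was the exception, with log2 signals of 12.23, 12.26 and 12.27 in overexpression, against 12.50, 12.43 and 12.39 in negative arrays. Its groups did not overlap, and the difference was -0.19 (SE 0.06, limma adjusted p = 0.128 over genes). It was called after centring on the array median, at -0.33 (adjusted p = 0.0163). RefSeq places the kinase gene HASPIN inside the ITGAE span, and which transcript the probes capture was not tested. ITGB7 was not bright enough to test. ITGAM and ITGB2, which together form a phagocyte receptor, lay near the array median. ITGAM gave 6.48, 6.34 and 6.63 against 6.23, 5.72 and 5.62 at one probe set, a difference of 0.63 (SE 0.35, adjusted p = 0.332 over probe sets), without overlap, and 0.04 at the other. ITGB2 differed by 0.04 and 0.34 (SE 0.35 and 0.24), the second without overlap. Of 11 leukocyte markers on the array, 7 never exceeded the array median, among them PTPRC, the pan-leukocyte antigen. CD79A exceeded it on all 6 arrays and CD14 on 5. The mean log2 signal of that list was 5.04 to 5.50 in overexpression and 4.98 to 5.50 in negative arrays. Of 6 endothelial and 6 fibroblast markers, 4 and 4 never exceeded the array median, while the endothelial PECAM1 and CDH5 did on all 6 arrays. Each of 4 platelet and erythroid markers exceeded it on at least 1 array. PPBP of that list did on all 6, with log2 signals of 8.27 to 8.69 in overexpression and 8.30 to 9.18 in negative arrays.

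Probe sets of one gene did not always move together. Of the 11 genes tested through several probe sets, 6 had all differences on one side of 0 and 5, ITGB1, ITGB4, ITGB5, ITGB8 and LAMC1, had them on both sides. ITGA1, ITGA2, ITGA6 and LAMB1 lay below 0 throughout, and ITGAM and ITGB2 above.

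Within-array ratios were taken for 9 pairs of genes, both for partners that can assemble and for alternatives to each other such as LAMB2 and LAMB1 or ITGA3 and ITGA6, and 5 of the 9 did not overlap between the groups. The genes for this comparison were picked after their values were seen, so it is a description with no test. Several pairs share a gene, and the share over all pairs of genes was not computed. Each gene entered through its brightest probe set, at a difference of 0.26 for ITGB4 and -0.03 for LAMC1. Their other tested probe sets differed by 0.05 and -0.06 for ITGB4 and by 0.16 for LAMC1. The log2 ratio of LAMB2 to LAMB1, set to a mean of 0 in the negative group, was 0.77, 0.69 and 0.77 on overexpression arrays and -0.05, 0.44 and -0.40 on negative arrays. The ratio of LAMA5 to LAMB1 was 0.89, 0.97 and 1.14 in overexpression, against -0.21, 0.07 and 0.14 in negative arrays. Both ratios were higher on every overexpression array. The ratio of ITGB4 to ITGA6 was 0.69, 0.51 and 0.57 with CT45A1 and -0.18, -0.02 and 0.20 without it, and that of ITGA3 to ITGA6 was 0.78, 0.53 and 0.54 against -0.19, 0.01 and 0.18. The ratio of LAMA5 to LAMC1 was 0.61, 0.89 and 0.96 in overexpression, against -0.24, -0.19 and 0.43 in negative arrays. These 3 ratios did not overlap either. ITGB1, the other partner of ITGA6, gave a ratio to ITGA6 of 0.42, 0.25 and 0.03 in overexpression, against -0.05, -0.04 and 0.09 in negative arrays, and here the groups overlapped. They also overlapped for ITGB8 over ITGAV, ITGB5 over ITGAV and ITGB1 over ITGA2, whose means in overexpression were 0.02 ± 0.09, -0.03 ± 0.08 and 0.11 ± 0.15 (SD, n = 3). A ratio within an array does not depend on how the arrays were scaled, and it does not say which partner changed.

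**Figure D3:**
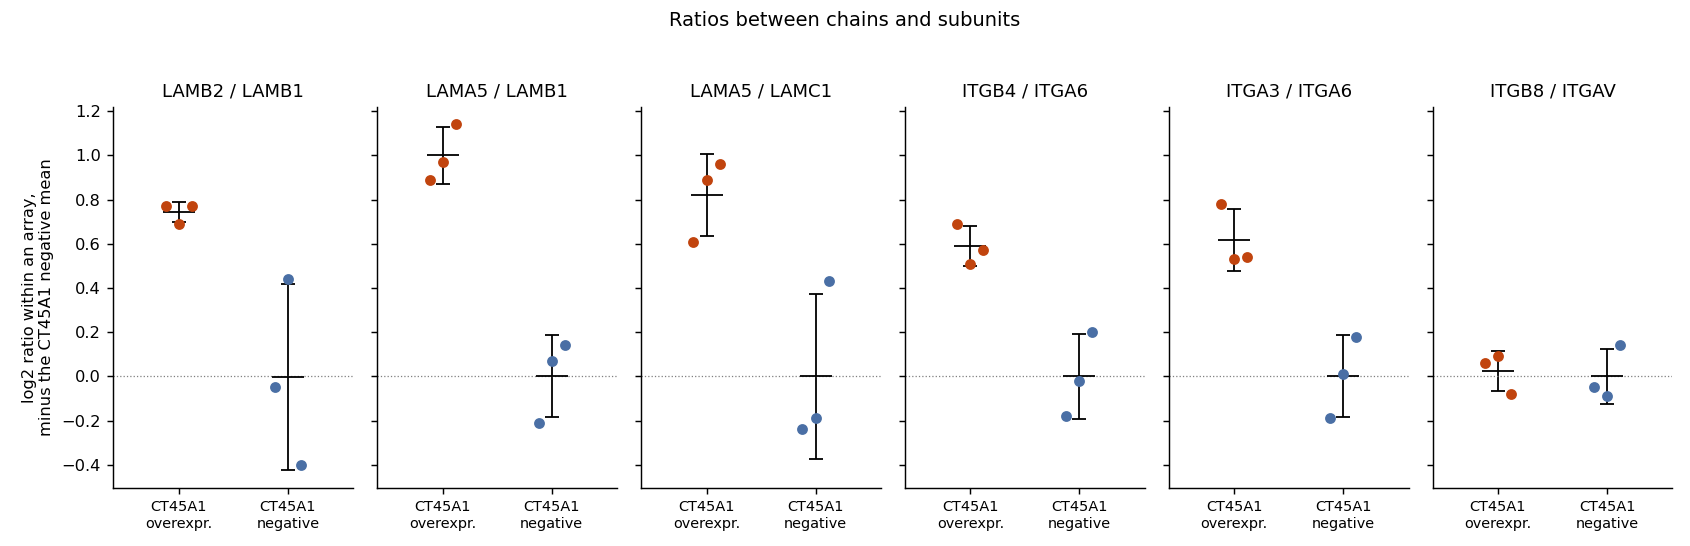
Log2 ratio of one transcript to another on the same array, minus the mean of the CT45A1 negative group (y axis), for the 3 CT45A1 overexpression arrays (left) and the 3 negative arrays (right) of each panel; bars are the mean and SD. Overexpression arrays lie above negative ones for LAMB2 over LAMB1, LAMA5 over LAMB1 or LAMC1 and ITGB4 or ITGA3 over ITGA6, and overlap with them for ITGB8 over ITGAV. The other 3 overlapping pairs are not drawn.

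The remaining 56 probe sets, and with them 14 genes, were below the brightness limit. These genes were ITGA2B, ITGA4, ITGA7, ITGA8, ITGA9, ITGA11, ITGAL, ITGAX, ITGB3, ITGB7, LAMA2, LAMA4, LAMB4 and LAMC3. Their log2 signals, with those of the dim probe sets of tested genes, ranged from -0.93 to 7.10, and 45 of the 56 never exceeded the array median. Without the brightness limit none of the 56 passed in limma, and 4 (7.14%) had an unadjusted p under 0.05, beside 5.48% of all 26995 probe sets under that limit. The smallest of these was at a second LAMA1 probe set, with signals of 48.5, 30.0 and 30.4 in overexpression, against 4.01, 7.04 and 2.25 in negative arrays. All those signals lay below the array median, and the adjusted p was 0.118.

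Among partner genes of integrins and laminins, the 3 that rose were matrix ligands other than laminins. The partner lists were chosen with earlier results of these data known, so their counts are a description. Of 78 tested genes in 7 lists of integrin and laminin partners, 3 rose and 2 fell (6.41%, beside 3.83% of all genes). The list median was 0.00885, beside 0.00845 for all genes tested. Of 14 other integrin ligands, COL1A1, CCN2 and TGFBI rose and none fell, beside 1.94% upward and 1.89% downward over all genes. COL1A1, a chain of the type I collagen that ITGA1 and ITGA2 receptors bind, had log2 signals of 11.62, 11.75 and 11.36 in overexpression, against 10.00, 10.19 and 10.08 in negative arrays, a rise of 1.49 (SE 0.11, limma adjusted p = 0.00017). Its other 3 probe sets differed by 0.20 to 1.43, and none of them passed (adjusted p = 0.0503 to 0.598 over probe sets). CCN2, a matricellular protein that binds integrins, had 10.84, 10.96 and 10.84 against 9.92, 10.30 and 9.73 and rose by 0.90 (SE 0.13, adjusted p = 0.00613), and by 0.50 (adjusted p = 0.149) with the actin covariate. TGFBI, a secreted ligand with an RGD sequence, rose by 0.36 (SE 0.05, adjusted p = 0.00607), with 13.79, 13.80 and 13.75 against 13.43, 13.42 and 13.41. With the actin covariate TGFBI was not called (0.33, adjusted p = 0.0657), and after centring on the array median it differed by 0.21 (adjusted p = 0.0334). Without the variance trend neither CCN2 nor TGFBI was called (adjusted p = 0.0982 and 0.123).

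Of 12 basement membrane genes, 1 fell and none rose. COL4A6, a type IV collagen chain, fell by 0.31 at its brightest probe set (SE 0.07, adjusted p = 0.0395), at 12.92, 12.90 and 12.74 in overexpression against 13.19, 13.09 and 13.22 in negative arrays. Its other probe sets differed by -0.20 and by 0.51, the second past the threshold upward (adjusted p = 0.0373 over probe sets). The mean of all tested COL4A6 probe sets, the brightest included, differed by -0.00231. The call on the gene was lost on leaving out any 1 of the 6 arrays (adjusted p = 0.0641 to 0.134) and was kept in 6 of 17 alternatives. Of 9 integrin activators and inhibitors, ITGB1BP1, which binds the ITGB1 tail and holds the receptor inactive, fell by 0.39 (SE 0.08, adjusted p = 0.0284), with signals of 11.06, 11.24 and 11.24 against 11.48, 11.59 and 11.64. Its other probe set differed by 0.01, and the mean of both by -0.19 (adjusted p = 0.204). With the actin covariate the difference was -0.25 (adjusted p = 0.311). Without overexpression replicate 1 or 2, or negative replicate 1 or 2, the call was lost (adjusted p = 0.0627 to 0.0996).

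None of the genes inside the adhesion or beside the integrins passed. Of 29 adhesion complex genes, the smallest p belonged to ACTN1, an actin crosslinker that binds β tails, which differed by -0.31 (SE 0.09, adjusted p = 0.093). Of 5 hemidesmosome genes, it belonged to PLEC, the linker of ITGB4 to keratin, which differed by 0.58 (SE 0.26, adjusted p = 0.235). Of 3 other laminin receptors, it belonged to SDC1, a heparan sulfate carrier, which differed by 0.11 (adjusted p = 0.454). Of 7 integrin-associated tetraspanins, it belonged to CD82, which differed by -0.19 (adjusted p = 0.432). In these 4 lists an unadjusted limma p under 0.05 was reached by 3, 2, 0 and 0 genes, beside 20.9% of all genes tested.

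**Figure D4:**
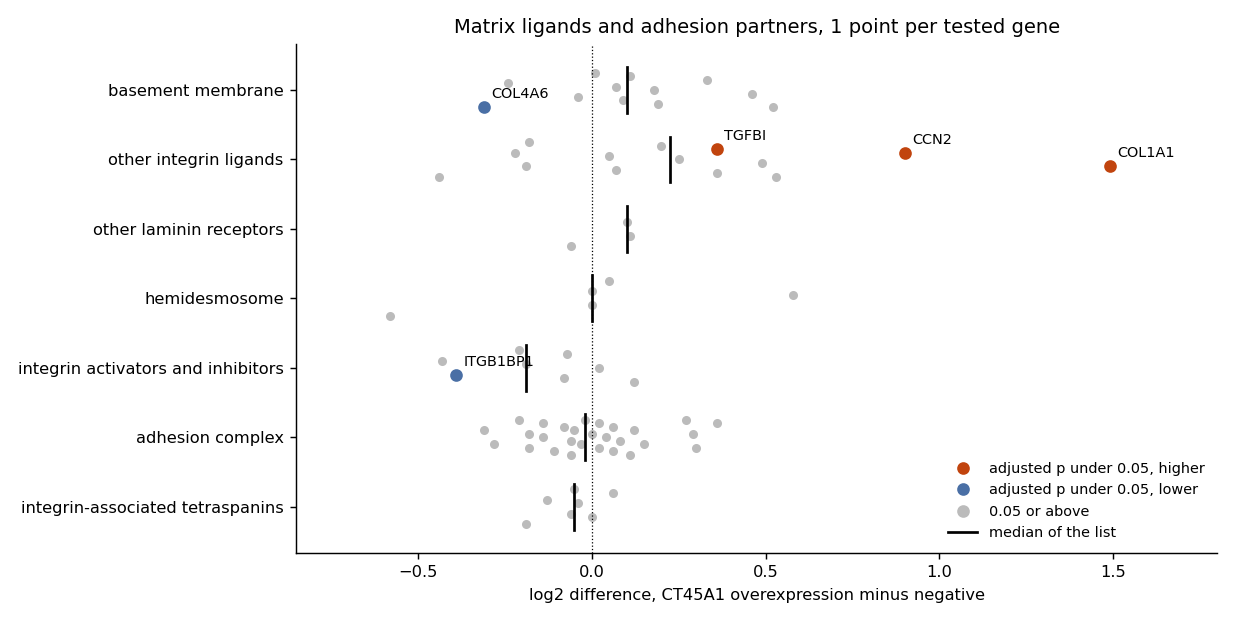
Log2 difference (x axis, CT45A1 overexpression minus negative) of each tested gene in 7 lists of integrin and laminin partners (y axis); black bars are list medians and coloured, named points passed an adjusted p of 0.05 over all genes. COL1A1, CCN2 and TGFBI lie to the right at 1.49, 0.90 and 0.36, and COL4A6 and ITGB1BP1 to the left at -0.31 and -0.39.

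LAMA5 stayed above 0 and ITGA6 below 0 under every alternative in which they were tested, while their calls were not kept under all of them. In the gene count, LAMA5 passed in 11 of 16 alternatives, with differences of 0.65 to 1.36, and ITGA6 in 9 of 17, with differences of -0.50 to -0.27. Without the variance trend neither passed (adjusted p = 0.149 and 0.231), nor did the dimmer ITGA6 probe set (adjusted p = 0.0922), and 0.0925% of all genes did. The only LAMA5 member probe set ends in _s_at, a suffix for probes that can match several transcripts, and was not tested where such probe sets were left out. The same holds for the dimmer ITGA6 probe set.

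**Figure D5:**
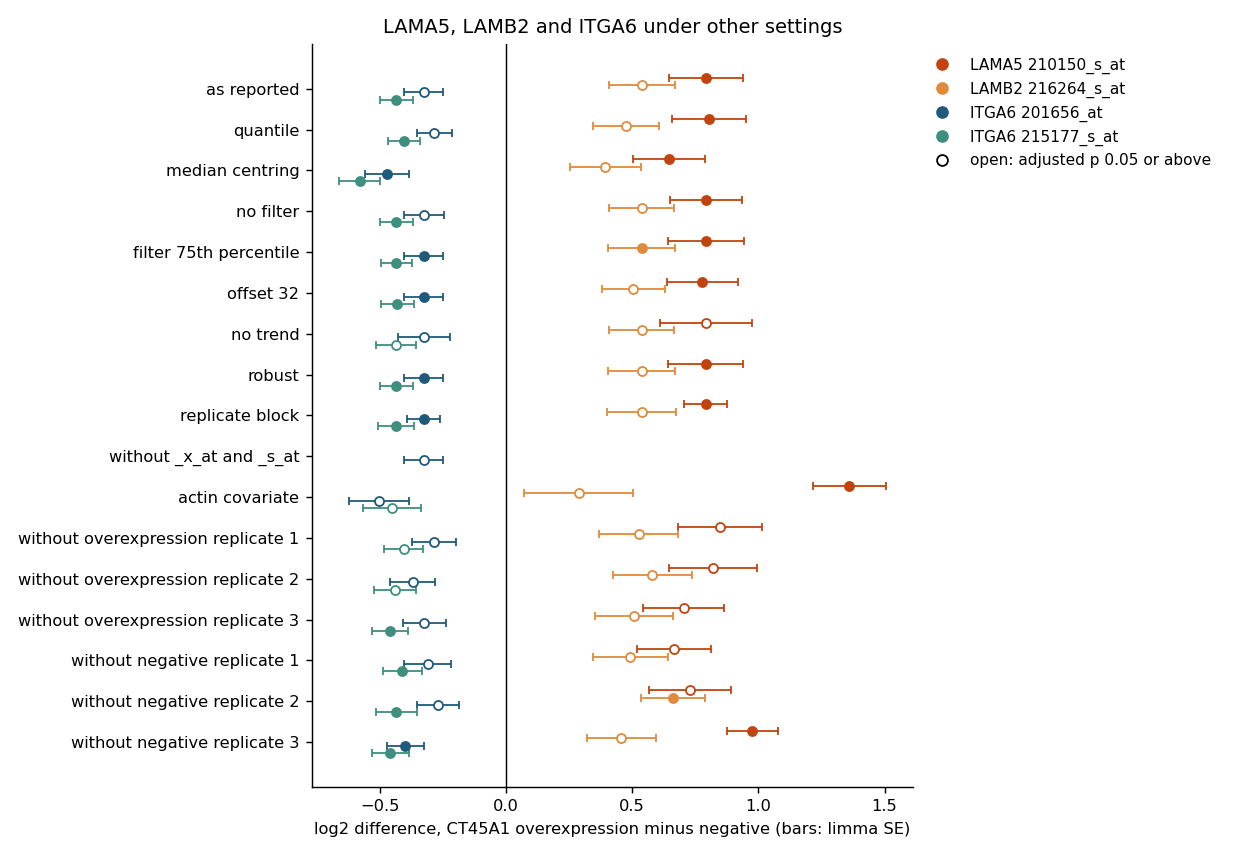
Log2 difference (x axis, CT45A1 overexpression minus negative, bars are limma standard errors) of LAMA5, LAMB2 and the 2 ITGA6 probe sets under each processing setting (y axis); filled points passed an adjusted p of 0.05 over all probe sets. LAMA5 and LAMB2 lie right of 0 and ITGA6 left of 0 in every setting in which they were tested, and LAMA5 reaches 1.36 with the actin covariate.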

How the data were processed

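Total RNA from 6 samples went onto 3′ expression arrays. The authors deposited 1 linear intensity per probe set and array, 54675 in all, from MAS5 and affy per the submitters' processing notes, without versions. The 62 control probe sets were left out. Signals were taken to log2 and fitted with limma (lmFit, eBayes with trend), two-sided, with Benjamini-Hochberg adjustment over 27618 probe sets. For counts of genes, the same p-values were adjusted over the 11895 brightest kept probe sets, 1 per gene. Genes were named from the platform annotation, which can be old, updated through Entrez identifiers in RefSeq of GRCh38.p14, and no member symbol changed. Of the probe sets 41091 had 1 symbol, 1801 had several, which named no member, and 11721 had none listed. RefSeq windows matched 24 of the 34 genes. The members, lists and rules for naming genes were chosen with earlier results of these data known. Every member with a kept probe set at an unadjusted p under 0.05 or a difference of at least 0.5 is given by array, and of each partner list up to 4 genes that passed, or the 1 with the smallest p. In simulated arrays with 200 changed genes, 60 genes each were tested at 1.5-, 2- and 4-fold changes among 11738 genes. Of these 46.7%, 75% and 95% were recovered, and 3 of 133 calls were false. The simulated noise was independent between probe sets, without array-wide effects, so these shares need not hold for the real arrays. The number of arrays limits precision. Alternatives tried were centring on the array median, quantile normalization, a filter at the 75th percentile or none, an offset of 32, no trend, robust eBayes, the replicate block, no _x_at or _s_at probe sets, averaging all probe sets of a gene, the actin ratio as a covariate, and leaving out each array. The software was limma 3.58.1 in R 4.3.3, with Python 3.11.15, pandas 2.3.3 and matplotlib 3.10.9.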

Additional observations from a re-analysis of the deposited data

How the results depend on the processing

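As reported, 2 member probe sets, 2 member genes and 5 partner genes passed. The 2 CT45 probe sets also passed. They exceeded the array median on overexpression arrays alone, so the CT45 counts here check the labels and are no result. After centring on the array median, which moved the median difference of all genes to -0.136, 7 probe sets (1 higher, 6 lower), 4 genes (1 higher, 3 lower) and 9 partner genes (3 higher, 6 lower) passed, beside 10.8% of all probe sets and 15.3% of all genes, of which 165 of 1815 were higher. ITGB8 then differed by -0.00271. After quantile normalization 3 probe sets (2 higher, 1 lower), 2 genes (both higher) and 1 CT45 probe set passed. Of all probe sets 2.82% then passed, and of all genes 3.14%. Without the variance trend 0 probe sets, 0 genes, 1 partner gene and 0 CT45 probe sets passed, and of all 11895 genes 11 (0.0925%). Without a filter 1 gene and 1 CT45 probe set passed, beside 1.55% of all genes. The filter at the 75th percentile gave 5 probe sets (2 higher, 3 lower), beside 6.74% of all probe sets, and 0 CT45 probe sets were tested. Without _x_at and _s_at probe sets, 0 probe sets, 1 gene, 3 partner genes and 0 CT45 probe sets passed. LAMA5 and the dimmer ITGA6 probe set, the 2 called as reported, were left untested there. The shares over all were 2.59% of probe sets and 3.37% of genes. With the actin covariate 3 genes (1 higher, 2 lower), 9 partner genes (2 higher, 7 lower) and 0 CT45 probe sets passed, beside 4.31% of all genes. With the replicate block 4 probe sets (1 higher, 3 lower) passed, among them the brighter ITGA6 and dimmer ITGA2 probe sets, and 2 genes and 6 partner genes. That block called 4.31% of all probe sets and 4.51% of all genes. The replicate numbers pair nothing by the labels, and deviations of arrays with the same number correlated at -0.01, -0.01 and 0.10. Leaving out 1 array, which left 0.776% to 4.91% of all genes called, gave 0 to 4 probe sets, 0 to 2 genes, 3 to 4 partner genes and 0 to 2 CT45 probe sets. The CT45 count was 0 where an overexpression array was left out, since fewer than 3 bright arrays remained. The cause of the other changes was not tested. Of 387 values of the 26 other member probe sets, 47 changed sign and 3 passed, 1 of ITGA2 and 2 of LAMB1.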
